A study of Mus musculus with 28 samples.

Results

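The regions described here are annotated promoters at which tagged histone H3.3 was found in NIH/3T3 Tet-On 3G cells, a mouse embryonic fibroblast line. They were chosen by measured values, namely an annotated feature in the class up to 3 kb upstream of genes or in the 5'UTR class, together with cover above 0 by the HA-H3.3 peaks of replicate 1 or replicate 2. This gave 9503 of the 82893 regions in the deposited tables, or 12.9% of the 73889 regions with an H3.3 peak and 80.4% of the 11827 promoter regions. Because H3.3 cover chose them, their H3.3 values are given as a description without a test.

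Chromatin immunoprecipitation with sequencing (ChIP-seq) of HA-H3.3 had 2 replicates, from wild type cells that carry an HA/FLAG-H3.3 construct and were cultured with aphidicolin, which stops DNA replication, and 2 mg/ml doxycycline as labelled. The subunits CHD4, HDAC1, HDAC2, MBD2/3 (1 antibody labelled for both proteins), MTA1 and RBBP4 and the marks H3K4me3, H3K27ac and H3K9ac came from wild type cells with no transduced construct, with 1 library each, so H3.3 and its neighbours were not measured in the same cells. MTA1 and RBBP4 were also measured in wild type cells transduced with GFP-Luciferase/OFP-Luciferase (control) and in H3.3 Knockdown cells carrying OFP-H3.3A/GFP-H3.3B, by a single library for each. Poly-A RNA was sequenced from 2 clones with the control constructs and 3 with the knockdown constructs, and their labels also name the FLAG/HA-H3.3 fibroblasts and doxycycline at 2 mg/ml. A sequential ChIP took tagged H3.3 by FLAG and then RBBP4, in HA/FLAG-H3.3 cells given doxycycline. Each clone is 1 isolate of 1 line, so the p-values below measure only the spread between these clones, and in bulk samples fewer cells expressing a gene and less RNA per cell cannot be told apart.

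H3.3 is a variant of histone H3 that chaperones such as HIRA deposit outside of DNA replication, and it is known for marking active promoters, enhancers and gene bodies. NuRD joins the nucleosome remodeller CHD4 to the histone deacetylases HDAC1 and HDAC2, with MTA proteins as scaffolds, MBD2 or MBD3 as alternative subunits and RBBP4 as a histone-binding subunit that other complexes also use. H3K4me3 marks the start of active or poised genes, and H3K9ac and H3K27ac are acetyl marks of active promoters that deacetylases remove.

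The promoter sequence of genes at these regions was rich in CpG. RefSeq windows on build GRCm38.p6, from 250 bases before to 50 bases after a start, matched 6953 of the 6976 genes assigned to the regions, in 8756 windows. They held a median of 21 CpG dinucleotides with an observed-over-expected ratio of 0.762, against 7 and 0.383 over all 32817 windows. The Sp1 GC box GGGCGG, searched on both strands as all motifs were, was in 63.4% of these windows and in 35.6% of all windows. The ETS core CGGAAG was in 30.8% and 16.9%, the NRF1 core GCGCATGCG in 3.71% and 1.75%, the YY1 core AAGATGGCG in 2.87% and 1.40%, and the cAMP response element TGACGTCA in 3.07% and 1.79%. The E2F sites TTTCGCGC or TTTGGCGC were in 1.69% and 0.814%. Each motif was counted on its own, so matches of different motifs may overlap. The CCAAT box (CCAAT) was about as frequent in both, at 38.0% and 37.4%, and the TATA box TATAAA was less frequent, at 6.84% and 13.6%. The contrast was smaller against expressed genes (control FPKM of at least 1) at no promoter region, whose 2817 windows had a median of 16 CpG dinucleotides and a ratio of 0.667. In these the GC box was in 54.2%, the ETS core in 25.2%, the NRF1 core in 2.70%, the YY1 core in 2.48%, the cAMP response element in 2.52%, the E2F sites in 1.28%, the CCAAT box in 40.6% and the TATA box in 9.62%. A match describes the letters of the window and is not a binding site. The stretches below are from genes at the regions of highest H3.3 level or of most subunits, and are examples of some of the letters that were counted. The YY1 core, the E2F sites and the TATA box are not among them. Capitals mark the motif, the reading direction is that of the gene, and a motif in reverse complement is named as such.
Cdt1, NRF1 core: gcccggcatgGCGCATGCGtctcttggtgc
Trappc3, ETS core in reverse complement: tcacgggtgggaCTTCCGggtagaactgcc
Ctnnal1, Sp1 GC box: gcccaggtattaGGGCGGagctggtggggc
1810013L24Rik, CCAAT box: caggcgggtaagCCAATcagaacgctgcgt
Fam206a, cAMP response element: ggcgcgctgagTGACGTCAccgggtgggtg
Gpbp1l1, ETS core: gcgaaggctttgCGGAAGggagagtggacc
Cdkn1b, CCAAT box: tcacgcgaccagCCAATgtcctggcggcgc
The CpG content also varied among the regions. Here each gene counted by its window with the most CpG, so these values are not on the footing of the medians over windows above. Genes whose region had no H3K4me3 peak had a median of 11 CpG dinucleotides (n = 1021 genes), against 24 where it had one (n = 5934). Genes at regions with no NuRD subunit peak had a median of 17 (n = 1907), and those with 1 to 6 subunits had medians of 22 to 24.

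The H3.3 peak was called in both replicates at 6559 of the 9503 regions (69.0%), in replicate 2 alone at 2270 (23.9%) and in replicate 1 alone at 674 (7.09%). The upstream class alone placed 7793 regions, the 5'UTR class alone 1243 and both classes 467. The regions had a median length of 1187 bp, with 534 to 2595 bp between the 10th and 90th percentiles, and those called in both replicates had 1480 bp against 699.5 bp for those in replicate 2 alone. The median H3.3 level, in RPKM (reads per kb of region, scaled to the library's reads), was 3.17 in replicate 1 and 3.33 in replicate 2. It was 1.22 and 1.11 at the 2324 promoter regions with no H3.3 peak, and 2.66 and 3.14 at the 64386 H3.3 regions outside promoters. The promoter regions' median was thus 1.191 times that of other H3.3 regions in replicate 1 and 1.059 times in replicate 2, in classes that H3.3 cover itself defined. The threshold lay at low cover: the region with the least cover was chr2:109533368-109534868, with 0.188 of its length covered in replicate 1 and levels of 1.87 and 1.67 RPKM, and 98.4% of the regions had at least 0.5 covered in 1 replicate. Just outside was chr9:110183721-110183950, a 5-subunit region with levels of 12.8 and 14.2 RPKM and no H3.3 peak, 1 of 9 such regions above the chosen regions' median in both replicates.

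Highest in H3.3 was chr17:39979842-39985867 (mm9) at Rn45s, the ribosomal RNA precursor gene, with 66.3 and 60.1 RPKM. All 6 subunits were also high there, from 60.3 RPKM for MTA1 to 143.3 for HDAC2, and H3K4me3 was at 45.3. Rn45s is a repeated locus, and its values were high in every library. The region chr11:3090811-3098657 at Sfi1, which has a replicate 1 peak only, was similar, with 19.9 and 14.2 RPKM of H3.3 and 16.5 to 22.5 RPKM of each subunit. The other regions of highest H3.3 level were not raised in the subunits to this degree. Cdt1, which licenses replication origins, had 22.4 and 11.8 RPKM of H3.3 at chr8:125090056-125092509, with RBBP4 at 4.89 and H3K4me3 at 12.1. Trappc3, a vesicle tethering subunit, had 21.3 and 11.6 at chr4:125935746-125940190, with RBBP4 at 7.83. Ctnnal1, a relative of alpha-catenin, had 17.5 and 14.8 at chr4:56877006-56879941, with RBBP4 at 3.71 as its 1 subunit peak. The region chr16:18415360-18417367, with 25.7 and 13.0, had no gene start within 3 kb among genes of known strand. In all 10 regions of highest level, replicate 1 was above replicate 2.

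The annotation classes did not take in every H3.3 region at a gene start. The class went with where the centre of a region lay. Of the 5621 H3.3 regions that hold a start of known strand, 3962 were in a promoter class, with a median centre offset of -107 bp and 63.8% of centres upstream. The other 1659 had a median offset of 350 bp into the gene and only 0.299% of centres upstream, and 72.5% of them had an intron feature. They resembled the chosen regions in what the rule did not use. An H3K4me3 peak was at 94.7% of them and at 95.5% of the chosen regions over a start, and a subunit peak at 87.9% and 88.6%. The H3.3 gene H3f3b has an H3.3 region within 3 kb of its start, but in no promoter class. H3f3a has one among the chosen regions, chr1:182744042-182745019, with 3.92 and 3.06 RPKM.

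Cover around gene starts followed expression. H3.3 regions of any class covered 69.6% of starts of genes with a mean FPKM (fragments per kb of transcript, scaled to the library) of at least 20 in the control clones (n = 3396), 63.1% at 5 to 20, 46.0% at 1 to 5 and 6.79% under 1 (n = 8857). For genes of at least 20, cover by the chosen promoter regions was highest 400 bp upstream of the start, at 57.1%, and was 49.9% at the start and 13.9% at 1000 bp into the gene. H3K4me3 peaks covered 96.2% of the same starts and 95.9% of positions 1000 bp into the gene. H3.3 regions of all classes covered 37.9% at 1000 bp upstream and 31.8% at 1000 bp downstream of these starts, so the upstream lean of the promoter classes was smaller for H3.3 regions as a whole.

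**Figure D1:**
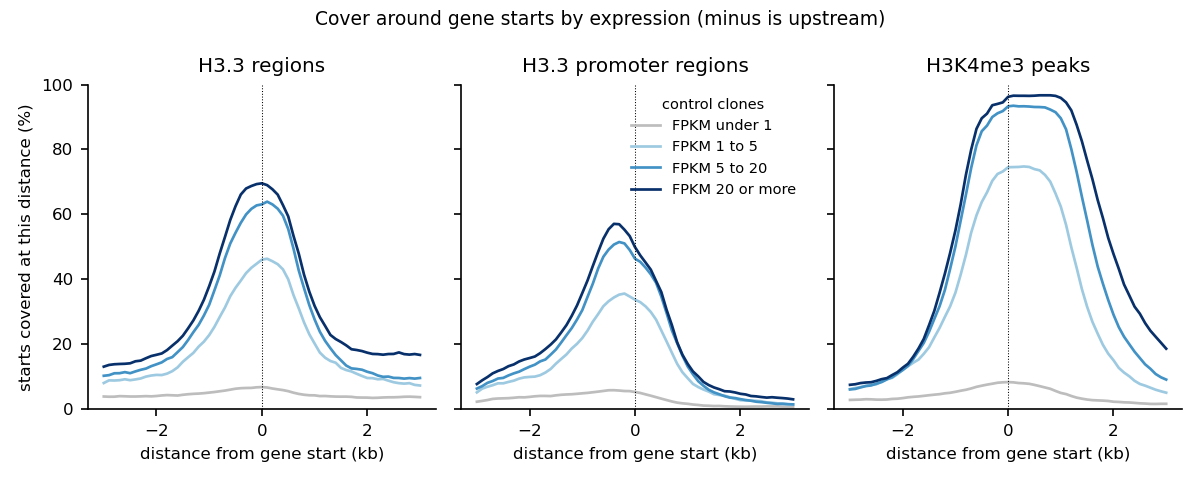
Share of gene starts covered (percent) against distance from the start in kb, minus being upstream, for all H3.3 regions, H3.3 promoter regions and H3K4me3 peaks, with genes grouped by mean FPKM in the control clones. Cover at the start rises with expression, from 6.79% under FPKM 1 to 69.6% at FPKM 20 or more for H3.3 regions, and the promoter regions lean upstream.

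Marks of active promoters set these regions apart from other H3.3 regions. An H3K4me3 peak overlapped 75.2% of them (exact 95% interval 74.3% to 76.1%), an H3K9ac peak 61.6% (60.6% to 62.6%) and an H3K27ac peak 41.6% (40.6% to 42.6%). Outside promoters the shares of H3.3 regions were 20.2%, 10.7% and 12.1%. The intervals cover counting error only, since each mark had 1 library. The median H3K4me3 level was 8.11 RPKM against 0.417 outside promoters, that of H3K9ac 1.80 against 0.746 and that of H3K27ac 1.37 against 1.01. Promoter regions without an H3.3 peak, each of which holds a subunit peak by construction, were higher still in H3K4me3 (13.9 RPKM, peak at 88.0%) and H3K9ac (2.59, 73.6%), and had an H3K27ac peak at 34.5%. Longer regions meet more peaks, and these other promoter regions were shorter, with 196 to 772 bp between their 10th and 90th percentiles. With a peak required over the centre base, an alternative added after the data were seen, the shares with H3K4me3 were 68.1% at H3.3 promoter regions, 86.7% at other promoter regions and 17.3% at H3.3 regions outside promoters. Those with H3K27ac were 14.3%, 17.4% and 4.05%, so the higher H3K27ac share of H3.3 promoter regions over other promoter regions did not hold for the centre base.

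All 3 marks were called together at 3736 of the regions (39.3%), H3K4me3 with H3K9ac at 2082 (21.9%) and H3K4me3 alone at 1246 (13.1%). No mark was called at 2195 (23.1%), against 74.3% of H3.3 regions outside promoters. H3K9ac without H3K4me3 was rare, at 26 regions alone and 12 with H3K27ac. The replicate in which H3.3 was called went with the marks: an H3K4me3 peak was at 86.0% of regions called in both replicates, at 82.0% of those in replicate 1 alone and at 41.9% of those in replicate 2 alone. Of regions called in replicate 2 alone, 18.4% had an RBBP4 peak, against 71.8% of those called in both.

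**Figure D2:**
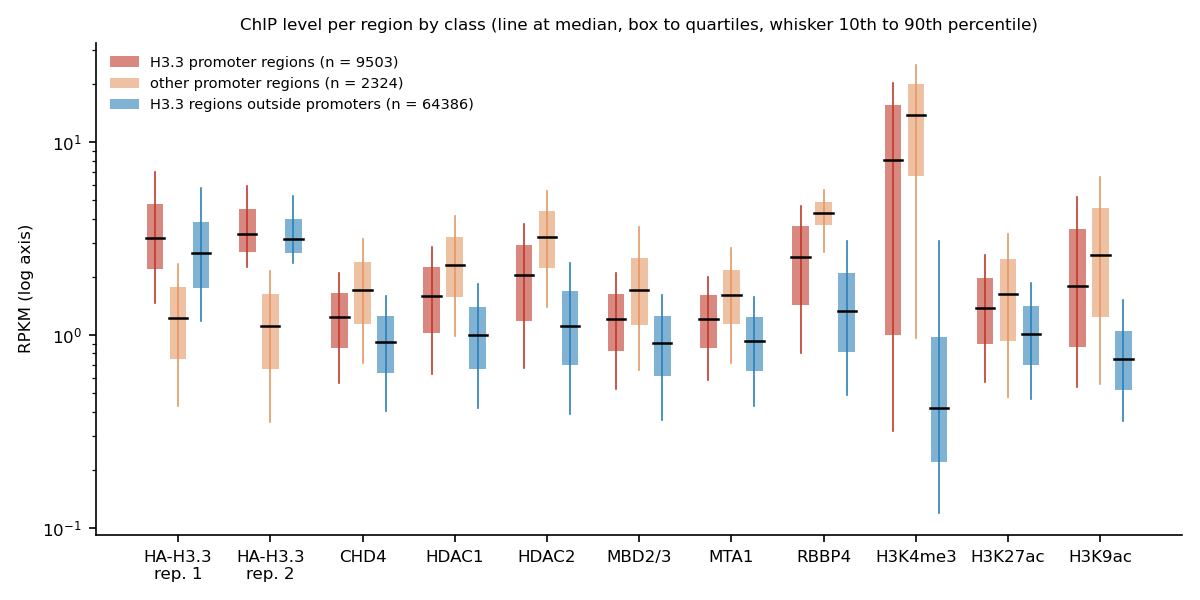
RPKM per region on a log axis for each of the 11 ChIP libraries, with the median as a line, quartiles as a box and the 10th to 90th percentiles as a whisker, for 3 classes of region. H3K4me3 has the widest gap, with medians of 8.11 at H3.3 promoter regions, 13.9 at other promoter regions and 0.417 at H3.3 regions outside promoters.

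At least 1 NuRD subunit had a peak at 5741 of the regions (60.4%, 59.4% to 61.4%), against 24.1% of H3.3 regions outside promoters. RBBP4 had the most, at 56.9%, followed by the deacetylases HDAC2 (34.4%) and HDAC1 (19.7%), and then by MTA1 (8.13%), MBD2/3 (7.50%) and the remodeller CHD4 (6.88%). Depth differed between the libraries, and the reads recovered from the levels ran from 6.62 M for HDAC2 to 11.0 M for MTA1, and up to 24.1 M for H3K4me3. Median levels at H3.3 promoter regions against other H3.3 regions were 2.54 and 1.33 RPKM for RBBP4, 2.04 and 1.11 for HDAC2, 1.60 and 0.992 for HDAC1, 1.23 and 0.919 for CHD4, 1.21 and 0.909 for MBD2/3, and 1.204 and 0.923 for MTA1. The medians of RBBP4, HDAC2 and HDAC1 were thus 1.61 to 1.91 times those elsewhere, and the other 3 were 1.304 to 1.341 times.

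The subunits were nested rather than separate. RBBP4 had a peak at 92.6% to 96.0% of the regions with a peak of each other subunit, and HDAC2 at 68.2% to 74.0% of those with CHD4, HDAC1, MBD2/3 or MTA1. RBBP4 alone was the most frequent make-up (1603 regions), followed by HDAC2 with RBBP4 (1242) and HDAC1 with HDAC2 and RBBP4 (736). All 6 subunits had a peak at 47 regions. CHD4 and MTA1 shared 178 regions, which is 27.2% of the CHD4 regions and 23.0% of the MTA1 regions. These overlaps stand beside unlike shares over all 9503 regions. A peak was at 56.9% of them for RBBP4 and 34.4% for HDAC2, but at 8.13% for MTA1 and 6.88% for CHD4. The overlaps were not tested against these shares.

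More subunits went with more of every mark. From 0 to 6 subunits the numbers of regions were 3762, 1885, 1817, 1274, 527, 191 and 47. The share with an H3K4me3 peak was 44.3% with no subunit, 89.8% with 1 and 97.2% with 2, and 97.9% to 99.5% with 3 to 6. The H3K27ac share went from 9.04% with none to 43.7% with 1 and 91.5% with 6, and the H3K9ac share from 22.1% to 73.9% and 95.7%. The median H3K4me3 level was 0.770 RPKM with none and 19.6 with 6. H3.3 itself went from 2.32 and 2.95 RPKM in replicates 1 and 2 with none to 5.36 and 4.84 with 5, and was 4.85 and 4.61 with 6. Length moved with the number too, from a median of 753 bp with none to 2324 bp with 6, and its part in the trend was not tested across numbers. Against H3.3 regions outside promoters the difference was present within every length class. At 1000 to 1500 bp, 80.5% of 2298 promoter regions and 22.0% of 13391 others had an H3K4me3 peak, and 70.6% and 29.0% had a subunit peak. Under 500 bp the subunit shares were 8.34% and 2.70%, and from 2500 bp they were 90.3% and 70.4%.

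**Figure D3:**
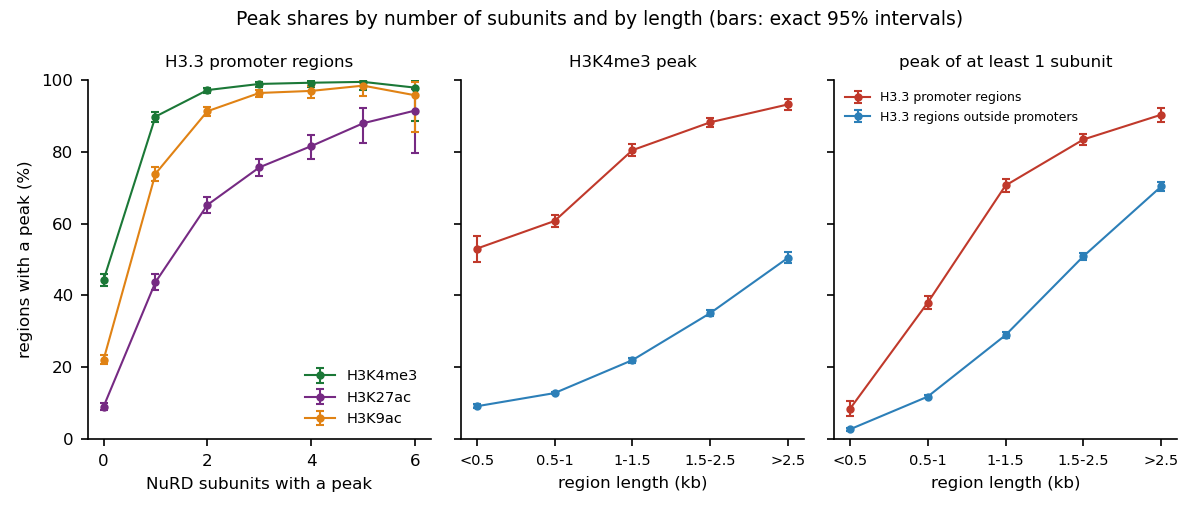
Percent of regions with a peak, with exact 95% intervals, against the number of NuRD subunits with a peak (left) and against region length in kb for H3K4me3 (middle) and for at least 1 subunit (right). Every mark is called more often with 1 or more subunits than with none, and H3.3 promoter regions lie above H3.3 regions outside promoters in each of the 5 length classes.

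Among the 10 regions with the most subunits, ranked by H3K4me3 after the number of subunits, Rn45s came first, and the H3.3 level of the others ran from 2.20 RPKM in replicate 1 at Atg4c to 8.01 in replicate 2 at Plaa. Fam206a (chr4:56814686-56816053) had 34.4 RPKM of H3K4me3 and 9.79 of H3K9ac, with 2.91 and 3.10 of H3.3 and a peak in replicate 2 alone. Plaa, a ubiquitin-binding adaptor gene (chr4:94268936-94270710), had 31.3 of H3K4me3 and 6.44 and 8.01 of H3.3. Cdkn1b, which encodes the cyclin-dependent kinase inhibitor p27 (chr6:134869576-134871443), had 25.4 of H3K4me3, 4.82 of RBBP4 and 2.80 and 3.00 of H3.3. The ranking by subunits and the ranking by H3.3 shared Rn45s alone. Over all 9503 regions, Spearman's rho between H3.3 and RBBP4 was 0.455 for replicate 1 and 0.190 for replicate 2, and between the replicates it was 0.657. Between HDAC2 and RBBP4 it was 0.825. These describe regions that share libraries and length classes, and they carry no test.

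A group of 997 regions (10.5%) had an H3K4me3 level below 0.331 RPKM, the median of regions without an H3K4me3 peak. Of these, 65.2% were called in replicate 2 alone, 5.82% had a subunit peak and 38.6% had no start of known strand within 3 kb. The 5 with the most H3.3 were called in both replicates. The first 2 lay near no such start: chr9:21139170-21140597 with 10.3 and 7.32 RPKM of H3.3 and 0.291 of H3K4me3, and chr8:81255754-81257411 with 8.27 and 8.41 and a peak of RBBP4. The region chr15:82953846-82955897 was 615 bp from the start of the ribosome biogenesis gene Rrp7a, with 5.21 and 9.02 of H3.3, although that gene had an FPKM of 73.5 and 62.7 in the control clones. Near Lyl1, a blood transcription factor gene with an FPKM of 0.0329 and 0.0495, the region chr8:87221693-87224753 had 4.98 and 8.04 of H3.3.

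A start of known strand lay within 3 kb of 7272 of the regions (76.5%), which assigned 6976 of 17786 genes (39.2%). Strand was known for 73.8% of gene entries, so genes without it are absent from these counts. The share of genes with such a region was 3.85% of those listed at 0 in the control clones, 21.0% at an FPKM under 1, 51.8% at 1 to 5, 66.0% at 5 to 20, 68.4% at 20 to 100 and 423 of the 564 genes at 100 or more. Short RNA genes left out, 6970 genes had a median FPKM of 11.0 and 11.1 in control clones 1 and 2, a mean of 11.1 ± 0.0747 (SD, n = 2). It was 10.6 and 10.2 for genes at other promoter regions only (n = 1240), and 1.00 and 1.29 over all 17779 genes with a start.

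Within the regions, expression followed the marks and subunits more than the H3.3 level, but H3.3 peaks chose these regions. Between the 10th and 90th percentiles, H3.3 ran from 1.46 to 7.01 RPKM in replicate 1 and from 2.26 to 5.94 in replicate 2. H3K4me3, which the rule did not use, ran from 0.316 to 20.3. How far the choice of regions lowers the values for H3.3 was not tested. Genes at regions with no mark had a median FPKM of 0.386 in the controls, those with H3K4me3 only 6.51, those with H3K4me3 and H3K9ac 10.8 and those with all 3 marks 16.4. It was 4.70 at regions with no subunit, 10.9 with 1, 13.3 with 2, 15.2 with 3, 18.9 with 4 and 23.0 with 5, and 17.6 over the 42 genes with 6. From the lowest to the highest quartile of H3.3 level it went from 7.86 to 14.8 in replicate 1 and from 9.63 to 14.5 in replicate 2. Spearman's rho with FPKM across the 6970 genes, which are not independent replicates, was 0.169 and 0.116 for H3.3, 0.346 for H3K9ac, 0.302 for H3K4me3 and 0.253 for RBBP4.

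Gene groups differed in how many members had an H3.3 promoter region. Over all genes with a known start the share was 39.2%. By control FPKM it was 51.8% at 1 to 5, 66.0% at 5 to 20, 68.4% at 20 to 100 and 75% at 100 or more. The lists were not tested against these shares. All 12 collagen and matrix genes with a known start had one, as did 15 of 17 clustered histone genes, 11 of 13 genes of sterol synthesis, 10 of 13 H3.3 and H3 chaperone genes, 15 of 22 cell cycle genes, 12 of 17 ribosomal protein genes and 9 of 14 Hox genes. The cell cycle (68.2%), ribosomal protein (70.6%) and Hox (64.3%) shares lay within the range of all genes at an FPKM of 1 or more. The mitochondrial respiratory chain had 5 of 13, although all 13 reached an FPKM of 1. Genes of the ATF4 amino acid stress response had 8 of 16. A gene outside these counts can still have an H3.3 region within 3 kb that is in no promoter class. This was so for 3 more mitochondrial, 4 more ATF4, 5 more cell cycle and 5 more ribosomal protein genes. It was also so for 3 H3.3 and H3 chaperone, 2 clustered histone, 1 sterol and 0 Hox genes. Developmental factors of other lineages had 0 of 18 and haematopoietic markers 0 of 5, and 1 of 7 epithelial markers (Krt8) and 1 of 6 skeletal muscle markers (Myh1) had one. Neural markers had 2 of 6 (33.3%) and endothelial markers 2 of 7 (28.6%), nearer to the 39.2% over all genes. Fibroblast markers had 7 of 10, and Vim, the mesenchymal intermediate filament gene, was at 2419 and 1691 FPKM in the control clones. The absence of the lineage factors went with expression, since 1 of those 18 reached an FPKM of 1.

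H3.3 levels varied among the H3 chaperone genes. Asf1a, a chaperone that hands H3 to HIRA, had 15.3 and 9.92 RPKM at chr10:53315435-53318097 with 3 subunits. Hira itself had 9.53 and 8.13 at chr16:18876036-18878673 with 4 subunits, and Ubn1, of the same complex, had 6.05 and 8.76 with 1. Cabin1 had 5.07 and 4.40, Daxx, the partner of ATRX, 4.96 and 4.92, and Asf1b 2.68 and 2.82. Regions as strong were in other lists, such as Ifi35, an interferon-induced gene, with 13.5 and 11.0, and Suz12, a polycomb subunit gene, with 13.1 and 10.6. Chaf1a and Chaf1b, whose products deposit replication-coupled H3, were called in replicate 2 alone, with 1.64 and 3.28 RPKM and 2.66 and 3.22, and had no subunit peak. Of NuRD genes, 7 of 11 had a region, among them Rbbp4 (5.86 and 6.71 RPKM, 5 subunits), Mta2 (5.20 and 6.69, 4 subunits) and Chd4 (3.63 and 5.74, 3 subunits). Among collagen genes Col1a2 had 2.89 and 3.24 RPKM with 3 subunits, and Col3a1 2.83 and 1.197 with none. Among clustered histone genes, whose near-identical copies make single values uncertain, Hist1h2ab had 6.90 and 2.19 RPKM and Hist1h2ac 4.29 and 1.06, both in replicate 1 alone and both with none. Polyadenylated RNA understates these genes, whose main transcripts lack a poly-A tail.

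The regions with an MTA1 or RBBP4 peak were slightly more numerous in the knockdown lists than in the control lists, although the lists themselves were shorter. The MTA1 list held 1703 peaks in control and 904 in knockdown, with 251 of each in these regions (14.7% and 27.8%). The RBBP4 list held 3561 and 2919 peaks, with 1201 and 1220 in these regions (33.7% and 41.8%). An MTA1 peak was at 196 regions in control (2.06%, 1.79% to 2.37%) and at 244 in knockdown (2.57%, 2.26% to 2.91%). An RBBP4 peak was at 906 in control (9.53%, 8.95% to 10.1%) and at 968 in knockdown (10.2%, 9.59% to 10.8%). The individual regions overlapped in part: 63 had an MTA1 peak in both, which is 32.1% of the control regions and 25.8% of the knockdown regions, and 520 had an RBBP4 peak in both, 57.4% and 53.7%. With 1 library per condition and unknown depth, no test of a difference was possible, and the deposited MTA1 lists differ in peak width, with medians of 150 bp in control and 861.5 bp in knockdown. At the centre base of regions the MTA1 shares were 0.463% in control and 1.69% in knockdown, and those of RBBP4 2.98% and 2.63%. Among peaks with a score of at least 100, the order turned for both proteins, with MTA1 at 0.452% in control and 0.389% in knockdown and RBBP4 at 4.504% and 3.799%.

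Whether a peak was found again went with its score in the authors' list. Of MTA1 control peaks in these regions, 18.3% with a score under 60 were overlapped by a knockdown peak (n = 93), 30.5% from 60 to 100 (n = 105) and 62.3% at 100 or more (n = 53). For RBBP4 the shares were 21.6% of 315, 36.1% of 391 and 69.5% of 495. In the reverse direction they were 32.8%, 46.1% and 74.6% for RBBP4 and 11.1%, 24.1% and 58.3% for MTA1. Regions with an RBBP4 peak in both conditions had more RBBP4 in unmodified cells (median 4.49 RPKM) than those in control alone (3.54), in knockdown alone (3.98) or in neither (2.27), whereas their H3.3 medians were 4.01 and 4.07, 3.73 and 3.79, 4.16 and 4.11, and 3.04 and 3.25 RPKM.

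**Figure D4:**
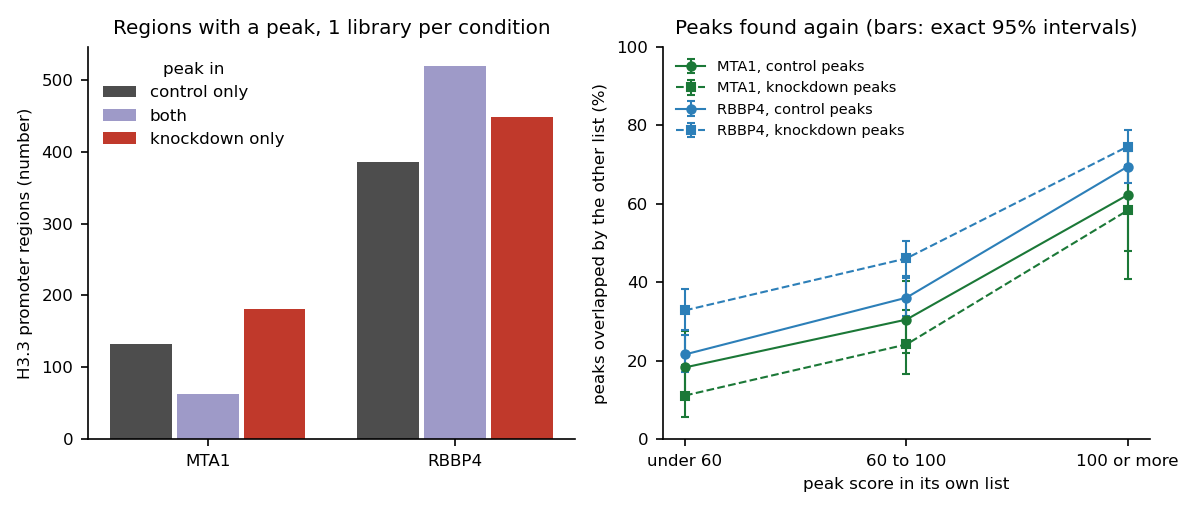
Left, number of H3.3 promoter regions with an MTA1 or RBBP4 peak in the control library only, in both or in the knockdown library only. Right, percent of peaks overlapped by the other condition's list against the peak score, with exact 95% intervals, which rises with score in each of the 4 lists.

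Apart from Rn45s, whose scores are given below, the regions with the strongest control peaks had lower scores in the knockdown list for both proteins. Their H3.3 levels ranged from 2.31 RPKM at Atoh8 to 7.37 at Pmp22. At Zfp800, a zinc finger gene (chr6:28210342-28212875, 3.03 and 4.13 RPKM of H3.3), the MTA1 score was 891.2 in control and 166.6 in knockdown, and the RBBP4 score 3100 and 1986. At Pmp22, a myelin and membrane protein gene (chr11:62941880-62950146, 7.25 and 7.37 RPKM), they were 738.1 and 61.3 for MTA1 and 3100 and 735.9 for RBBP4. At Atoh8, a bHLH factor gene (chr6:72183996-72187407), they were 425.8 and 85.2, and 2333 and 874.3. At Fzd2, a Wnt receptor gene (chr11:102462354-102467792), they were 410.1 and 139.5, and 1733 and 766.5. At Pard3, a cell polarity gene (chr8:129586929-129589220), they were 322.7 and 138.8, and 2727 and 1272. These regions were picked for a high control score, and the lists' depths are unknown, so the lower knockdown scores are a description with no test. Rn45s had a score of 3100, the highest that the lists hold, for MTA1 in both conditions. Its RBBP4 score was lower in knockdown too, at 3100 in control and 2635 in knockdown. RNA of Pmp22 was at 19.6 and 24.9 FPKM in the control clones against 113.1, 49.5 and 40.5 in the knockdown clones, with no overlap. Pard3 went the other way, with 13.9 and 12.4 against 8.51, 9.43 and 12.1, also with no overlap. Zfp800 had 4.11 and 2.38 against 2.73, 3.77 and 4.11, and its groups overlapped. They also overlapped for Atoh8, with 45.1 and 28.0 against 42.9, 44.5 and 94.3. For Fzd2, with 47.9 and 46.8 against 113.5, 57.0 and 45.6, they overlapped too. Overlap of 2 control and 3 knockdown clones carries no test, and it is not set against the share of all genes without overlap.

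The sequential list held 6 peaks, of which 2 lay in these regions, both nearest to genes whose strand is not known here. The peak chr11:71855503-71855735 was in the region chr11:71855072-71856629 at Fam64a, with a fold enrichment of 4.59 and a −log10 q of 2.42 as deposited by the authors. The peak chr8:18595145-18595377 was in the region chr8:18594806-18595814 at Mcph1, a gene of chromosome condensation, with 8.49 and 8.32. Both regions had an H3.3 peak in both replicates and an H3K4me3 and an RBBP4 peak, with RBBP4 at 9.49 and 8.70 RPKM against a median of 2.54. Both also had RBBP4 peaks in control and in knockdown cells, with scores of 184.5 and 588.8 at Fam64a and of 169.0 and 310.5 at Mcph1.

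No gene at the regions passed the test of knockdown against control clones. H3f3a, the targeted gene with a region, was at 128.3 and 143.5 FPKM in the control clones and 71.8, 35.6 and 5.05 in the knockdown clones (in order). The groups did not overlap. Of 5859 such genes at a mean FPKM of 1 or more, limma with Benjamini-Hochberg adjustment over all 11728 genes called 0 at an adjusted p under 0.05, with a smallest adjusted p of 0.139. Over all genes it called 4, or 0.0341%, all short RNA genes. At an unadjusted p under 0.05, 200 genes at the regions were higher (3.5% of all genes tested were) and 357 lower (6.31%), which is 9.51% of genes at the regions in both directions against 9.81% of all genes. The genes at H3.3 promoter regions were thus near the background in number. Under quantile normalization, the balance turned to 291 higher and 226 lower at the regions and to 557 and 492 over all genes. Their median log2 difference in log2(FPKM + 1) was −0.10, as it was over all genes (−0.10), and 60.4% were lower against 59.9% of all. Under quantile normalization the medians of both moved by about as much, to −0.00025 for the genes at the regions and −0.0065 for all genes.

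The medians by subunit number were −0.08 with none (n = 1255), −0.08, −0.11, −0.10 and −0.11 with 1 to 4, −0.16 with 5 (n = 189) and −0.19 with 6 (n = 41). The share of genes at an unadjusted limma p under 0.05 did not rise with the number. It was 10.8% with none, 7.86% with 4 and 9.76% with 6. With 6 subunits, 4 genes were higher and 0 lower at that p, and the order of the medians was not tested. By quartile of H3.3 level they were −0.10, −0.10, −0.10 and −0.09. Genes at regions with an RBBP4 peak in both conditions had −0.18 (n = 418), with the 3 clones at −0.30, −0.13 and −0.10, and those with a peak in neither had −0.09 (n = 4724), with −0.11, −0.08 and −0.06. In each of these classes the 3 clones were below the control mean, and knockdown clone 1 was farthest below in the class with RBBP4 in both.

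The 10 genes of smallest p in each direction are given as a description, since this contrast chose them and none passed the adjusted test. Atp6v0c, the membrane ring subunit of the proton pump of lysosomes, was at 58.7 and 47.9 FPKM in the 2 control clones against 256.4, 188.0 and 269.7 in the 3 others (log2 difference 2.13 ± 0.24 SE, limma adjusted p = 0.219). Cd164, a sialomucin gene, had 20.9 and 23.0 against 104.7, 92.3 and 71.5 (difference of 1.962 ± 0.23 SE, adjusted p = 0.219 by limma). Setd7, a lysine methyltransferase gene, had 10.2 and 8.86 against 26.3, 26.9 and 30.1 (1.45 ± 0.17 SE). The metabolic genes Mdh1, cytosolic malate dehydrogenase, and Mpc2, of the mitochondrial pyruvate carrier, were also in this group. Mdh1 had 30.0 and 32.0 against 68.0, 106.2 and 119.0, and Mpc2, whose region had all 6 subunits, had 13.3 and 13.2 against 36.5, 33.6 and 25.4. Anapc13, of the anaphase promoting complex, had 60.6 and 53.7 against 200.5, 122.7 and 155.5. The remaining 4 were Ccdc34, Lxn, 2310039H08Rik and Gamt, with log2 differences of 1.19 to 1.80.

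In the other direction Akr1c18, a steroid dehydrogenase gene, was at 8.55 and 18.9 FPKM in the 2 control clones against 0, 0.0767 and 0.146 in the 3 others (log2 difference −3.69 ± 0.36 SE, limma adjusted p = 0.139). Without control clone 1 it was the 1 gene at the regions that passed (limma adjusted p = 0.0310), and over the other alternatives its adjusted p reached 0.775. Its region, chr13:4149500-4150204, had 2.51 and 2.86 RPKM of H3.3 and no subunit peak. Itgb1, the beta 1 integrin chain that binds matrix, had 151.3 and 140.1 against 51.6, 47.8 and 32.9 (−1.73 ± 0.25 SE, limma adjusted p = 0.307). Pam, a peptide-amidating enzyme gene, had 41.9 and 38.5 against 14.7, 15.8 and 17.2 (−1.29 ± 0.17 SE). Ifrd2 had 49.3 and 28.2 against 4.24, 7.72 and 7.06, and its region had 5 subunits and an H3.3 peak in replicate 2 alone. The others were Rab20, a small GTPase of vesicle traffic, the phosphatase gene Ptpn6, the RNA decay factor gene Smg9, the activin receptor gene Acvr2b, the guidance cue gene Sema3a and the kinase gene Cdk20, with log2 differences of −1.06 to −1.64. Among these 20 genes the H3.3 level of the region ran from 0.619 and 2.86 RPKM at Gamt to 9.47 and 12.0 at Ptpn6.

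**Figure D5:**
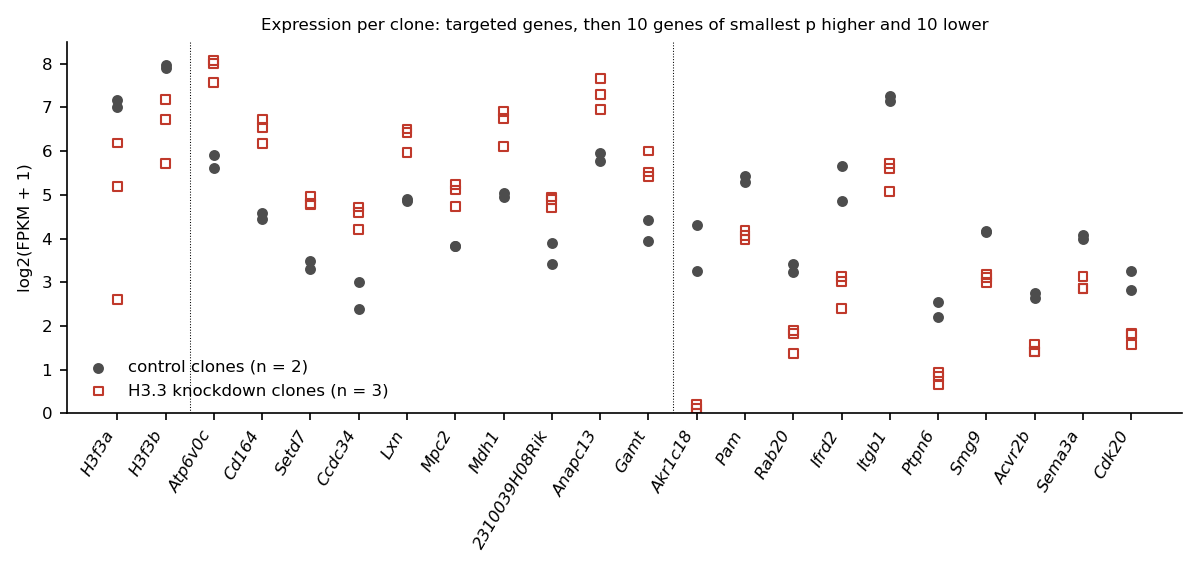
log2(FPKM + 1) per clone for H3f3a, H3f3b and the 10 genes at H3.3 promoter regions of smallest limma p in each direction, with 2 control clones as filled circles and 3 knockdown clones as open squares. The 20 genes were chosen for their p, which fixes the separation of their groups, and none passed at an adjusted p under 0.05.

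The gene lists are described by counts and were not tested as groups, and over all genes tested 59.9% were lower, with 3.5% higher and 6.31% lower at an unadjusted p under 0.05. Of 15 cell cycle genes at the regions 15 were lower and 1 of them had an unadjusted p under 0.05, with a median log2 difference of −0.97. This median was −0.58 without knockdown clone 1 and −0.53 without control clone 1. Mcm2, of the replicative helicase, was at 133.2 and 75.5 FPKM against 17.1, 58.7 and 48.1, with clone 1 the lowest of the 3 and control clone 1 above control clone 2. Cdt1 was at 94.5 and 70.7 FPKM in the control clones against 13.9, 48.3 and 59.2, and the groups did not overlap. Of 11 sterol synthesis genes 11 were lower, with 0 at that p and a median of −0.40, and without knockdown clone 3 8 were lower with a median of −0.15. Of 8 genes of the ATF4 amino acid stress response 6 were lower (2 at that p, median −0.80). Of 10 smooth muscle contractile genes 9 were higher, 3 at that p, with a median of 0.45, but without control clone 2 5 were higher, 0 at that p, with a median of 0.18. Myh9, a non-muscle myosin heavy chain gene of this list, had 174.6 and 154.9 against 203.1, 305.0 and 287.4. Of 12 collagen and matrix genes 5 were higher and 7 lower (8 and 4 without control clone 2, 7 and 5 without knockdown clone 3), and the 2 higher at that p included Sparc, with 503.6 and 657.0 against 1314, 1046 and 1051. Ribosomal protein genes were mixed, with 7 of 12 higher and a median of 0.15, which turned to 5 of 12 and −0.09 under quantile normalization. No gene of any list passed the adjusted limma test. Of the markers of other cell types at these regions, Krt8, Tubb3, Slc17a7 and Myh1 were at 0.235 FPKM or less in every clone. The endothelial gene Egfl7 was at 5.01 and 6.30 against 2.69, 4.61 and 3.39, and Tek at 0.902 and 1.34 against 10.5, 3.14 and 0.586, with overlap.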

How the data were processed

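Wild type and H3.3 knockdown NIH/3T3 Tet-On 3G cells were measured by ChIP-seq and RNA-seq. Bowtie, bedtools, TopHat, Cufflinks, Cuffdiff and MACS2 with build mm9 are named in the submitters' processing notes, without a role or version. The members and gene lists were chosen with earlier results of these data known. Levels were deposited as log2(RPKM + 1), which gave whole reads within 0.05 for 100% of values, and a region at the median held 12 to 230 reads. Cover by peaks was deposited as a fraction of the region. The score of each peak, and the fold enrichment (a ratio) and −log10 q of the sequential list, are the authors' own, and that list was made with MACS 2.1.1.20160309, per the file headers. FPKM per gene was deposited by the authors, and entries sharing 1 symbol were added up.

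A peak list counted at a region by an overlap of at least 1 bp. Intervals are exact (Clopper-Pearson) at 95% and cover counting error only. Genes were assigned where a start of known strand, from RefSeq names and strands matched to the deposited gene positions, lay within 3 kb. Clones were compared with limma 3.58.1 (trend, two-sided) in R 4.3.3 on log2(FPKM + 1) over genes at a mean FPKM of 1 or more, without a replicate block, and checked on simulated data. The clone numbers were not taken to pair the clones, because same-numbered clones deviated from their group means with r of −0.25 and −0.10. Regions and genes were named by fixed rules: the 10 highest in H3.3, the 10 with most subunits, the 5 highest scores per control list, those at sequential peaks, the 5 richest in H3.3 with low H3K4me3, the 10 smallest p in each direction (short RNA genes left out), the targeted genes, regions beside the threshold, and the most expressed members of each list. Other Python work used pandas 2.3.3 and scipy 1.17.1. Input libraries were not used here.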

Additional observations from a re-analysis of the deposited data

How the results depend on the processing

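The median log2 difference over all genes at the regions was near 0 under quantile normalization. It was −0.00025 there, and 0.00091 for genes with a start within 1 kb, so its sign is not read as stable. In the other settings the median for genes at the regions was below 0. The order of some groups did not hold either, as given below. The choice of regions mattered to their number, which was 1710 with the 5'UTR class alone. Requiring at least 50% of a region to be covered gave an H3K4me3 share of 68.0%, an H3K27ac share of 6.18%, an H3K9ac share of 49.7% and a subunit share of 32.1%. Peaks with a score of at least 100 gave 74.1%, 25.0% and 57.4% for the 3 marks, 0.452% and 0.389% for MTA1 in control and knockdown, and 4.50% and 3.799% for RBBP4. Regions called in both HA-H3.3 replicates gave 86.0%, 52.8% and 74.7% for the marks, 2.65% and 3.28% for MTA1, 12.2% and 13.4% for RBBP4 and 75.5% for at least 1 subunit. That last share was 79.8% with the 5'UTR class alone. Peaks over the centre base, a setting chosen after seeing the data, gave 68.1%, 14.3% and 49.2% for H3K4me3, H3K27ac and H3K9ac, 0.463% and 1.69% for MTA1 and 2.98% and 2.63% for RBBP4, so the order of control and knockdown turned for RBBP4 here and for both proteins at the higher score. The H3K27ac share was also below that of other promoter regions (17.4%) here.

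For H3.3, the cover that chose the classes fixes the sign of the median log2 level at H3.3 promoter regions minus that at other promoter regions. Each other promoter region holds a peak of at least 1 subunit by construction, most often RBBP4 (79.6%). A CHD4 peak was at 6.93% of them and an MTA1 peak at 6.28%. How far this choice sets the sign for each subunit was not tested, so the kept signs are not read as stability. With log2(RPKM + 0.1) this difference was 1.31 and 1.504 for H3.3, −0.45 for CHD4, −0.50 for HDAC1, −0.63 for HDAC2, −0.47 for MBD2/3, −0.39 for MTA1, −0.74 for RBBP4, −0.23 for H3K27ac and −0.51 for H3K9ac. Over regions of at least 10 reads it was 0.63 and 0.73 for H3.3, −0.47 for CHD4, −0.47 for HDAC1, −0.58 for MBD2/3, −0.38 for MTA1, −0.45 for RBBP4, −0.49 for H3K4me3, −0.35 for H3K27ac and −0.51 for H3K9ac. Over regions called in both replicates it was 1.15 and 1.22 for H3.3, −0.21 for CHD4, −0.24 for HDAC1, −0.33 for HDAC2, −0.24 for MBD2/3, −0.17 for MTA1, −0.44 for RBBP4, −0.29 for H3K4me3, −0.054 for H3K27ac and −0.072 for H3K9ac. The cause of these shifts was not tested.

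In RNA, leaving out each clone in turn gave 0 to 1 called genes at the regions, the 1 being Akr1c18 without control clone 1, and a median log2 difference of −0.10 to −0.08. Adding genes of unknown strand by either locus end, chosen after seeing the data, gave 4 called genes, the number called over all genes. The median log2 difference was −0.057 with no filter on low values and −0.00025 with quantile normalization, which turned genes at an unadjusted p under 0.05 from 200 higher and 357 lower to 291 and 226. Counts of gene lists under each setting were added after seeing the data. With the replicate block it was −0.10 and 0 genes were called. Same-numbered clones had correlations of −0.25 and −0.10, and 206 rather than 557 genes had an unadjusted p under 0.05. The median control FPKM of genes at the regions was 12.2 with a start within 1 kb, 12.3 for regions called in both replicates, and 11.0 to 11.1 when either control clone was left out. Depth limited the levels of single regions most for MBD2/3, where 12 reads at the median give a counting error of 28.9%, and least for H3K4me3, at 6.59%.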
